A study of Mus musculus with 42 samples.

Results

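The genes described here are 40 of the 14296 genes measured in differentiating mouse embryonic stem cells, and they lie in a window at the end of chromosome 2 and in a window on distal chromosome 4. A gene is a member when it lies fully inside chr2:175000000-178000000 or chr4:145400000-146600000 (GRCm38, GENCODE vM21), which gave 24 members on chromosome 2 and 16 on chromosome 4. The windows themselves were chosen by the measured courses, as runs of zinc finger genes whose levels rose and fell together over the same 42 libraries. Likeness of course within the windows is therefore a description of how they were picked and is given with no test.

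Most members encode KRAB zinc finger proteins. In such a protein an array of zinc fingers binds a particular DNA sequence, and the KRAB domain recruits the corepressor TRIM28 (also called KAP1), which brings the histone methyltransferase SETDB1 and HP1 proteins to the bound site. Many of these proteins silence transposable elements, and in embryonic stem cells and early embryos this system holds endogenous retroviruses in check and protects the methylation of imprinted genes. The genes arose by repeated tandem duplication and lie in clusters of close relatives, so that the reads of one gene can resemble those of another.

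The cells were W9.5 embryonic stem cells of strain background 129X1/SvJ, which differentiated spontaneously into embryoid bodies after withdrawal of leukaemia inhibitory factor (LIF), the cytokine that keeps such cells undifferentiated. Poly-A RNA was sequenced with strand information every 6 h from 0 h to 120 h, and each of the 21 time points has a library A and a library B, 42 in all. The study describes A and B as biological duplicates of a single cell line. The labels name no genetic change and no other treatment, and the 0 h libraries are the reference for each later time. The files hold log2 CPM, a read count scaled to the size of its library, and between 10120972 and 51652434 reads per library were recovered from them.

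The cells carried the marks of embryonic stem cells at 0 h, with the pluripotency factor Pou5f1 at a mean of 9.98 log2 CPM and all 8 listed stem cell markers in the files. The summed level of these 8 was 3850 CPM in replicate A and 4090 CPM in replicate B at 0 h and 1710 and 1860 CPM at 48 h. The sum of 4 markers of the primed epiblast was 132 and 126 CPM at 0 h and 2010 and 1920 CPM at 48 h. Markers of primitive streak and mesoderm differed between the duplicates at 96 h, with 97.0 CPM in A and 462 CPM in B. The makeup of the cultures thus changed along the course of every member, and its part in their levels was not tested. In bulk RNA, fewer cells that express a gene and less RNA per cell cannot be told apart. The libraries B at 42 h and B at 66 h lay low for the chromosome 2 members, with means of 1.84 and 1.33 log2 CPM beside 2.61 and 2.18 log2 CPM in A. Their counted reads, 31860254 and 27858688, were near the median of 29692082.

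The annotation showed what the windows hold. The chromosome 2 window contains 84 annotated genes, of which 43 are protein coding and 31 encode a KRAB domain with at least 3 zinc fingers. Of the 84, 24 were among the measured genes, as 22 protein coding genes and 2 unprocessed pseudogenes. Reads were counted on GENCODE vM2, so a gene not measured need not have failed the filter of the study on low values. Of the 22, 16 encode a KRAB domain with at least 3 fingers, 3 encode fingers without a recognised KRAB core and 3 (Gm14435, Gm14296 and Zfp972) encode fewer than 3 fingers. The chromosome 4 window contains 47 annotated genes, of which 8 are protein coding, and all 8 of those encode KRAB zinc finger proteins and passed the filter. The other 8 chromosome 4 members are pseudogenes. The coding members encode from 0 to 25 fingers on chromosome 2 (median 10) and from 5 to 20 on chromosome 4 (median 13). On chromosome 4, 15 of the 16 members lie on the plus strand, whereas the chromosome 2 members divide into 8 on the plus and 16 on the minus strand.

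The KRAB core separates the clusters. A stretch of 48 coding bases from the core of the KRAB box, found by its conserved residues in the translated GENCODE vM21 coding sequences, was present in 18 chromosome 2 members and in all 8 coding members on chromosome 4. On chromosome 2, 5 members carried the cluster consensus exactly and 13 differed from it at 1 base. On chromosome 4, 2 members carried the consensus, 5 differed at 2 bases and 1 differed at 4. The consensus sequences are shown to let the families be compared, with capitals at the 17 bases where they differ from each other.
Chromosome 2 consensus: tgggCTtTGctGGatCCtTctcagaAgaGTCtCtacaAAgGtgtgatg
Chromosome 4 consensus: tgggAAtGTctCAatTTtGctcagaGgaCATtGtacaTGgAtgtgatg

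Promoters of the members were taken from RefSeq (GRCm38.p6), which held entries, from 250 bases before the start of the gene to 50 after it, for 13 members on chromosome 2 and for 6 starts of 5 members on chromosome 4. The promoters of a cluster shared a run of bases that is rare elsewhere. On chromosome 2 the 14 bases CTAACCCTAAGGGT stood in 12 of 13 promoters, between 61 and 146 bases before the start, and in 34 of all 32851 promoters in the table (0.103%, either strand). On chromosome 4 the 15 bases TGGGAAGCTAATTAA stood in 5 of 6, between 135 and 164 bases before the start, and in 12 of 32851 (0.0365%). The chromosome 2 promoter without the run, that of Gm14444, lies inside the GENCODE span of the gene and not at its GENCODE start. These runs were found by comparing the member promoters with each other, so their presence in the members is a description, and no factor is named from them. The CCAAT sequence followed the run at the same distance, 42 bases from its first base, in 11 of the 12 chromosome 2 promoters. The stretch around the run is shown for members that recur below, 5′ to 3′ on the strand of the gene, with the shared run and the CCAAT sequence in capitals.
Zfp970 (chr2:177464611-177464686, plus strand): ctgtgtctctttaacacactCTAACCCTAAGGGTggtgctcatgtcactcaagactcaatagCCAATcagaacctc
Gm14403 (chr2:177498080-177498155, plus strand): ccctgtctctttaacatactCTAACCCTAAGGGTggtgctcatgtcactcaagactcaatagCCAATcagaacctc
Gm14325 (chr2:177840399-177840474, minus strand): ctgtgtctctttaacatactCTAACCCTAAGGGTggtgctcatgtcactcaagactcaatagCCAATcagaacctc
Gm14326 (chr2:177957370-177957445, minus strand): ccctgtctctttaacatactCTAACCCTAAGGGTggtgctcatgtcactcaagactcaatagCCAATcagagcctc
Gm14305 (chr2:176708187-176708262, plus strand): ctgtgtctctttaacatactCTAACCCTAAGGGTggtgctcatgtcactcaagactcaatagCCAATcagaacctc
Zfp972 (chr2:177925724-177925799, minus strand): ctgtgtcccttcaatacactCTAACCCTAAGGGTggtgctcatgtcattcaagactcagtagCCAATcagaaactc
Gm14393 (chr2:175067860-175067935, minus strand): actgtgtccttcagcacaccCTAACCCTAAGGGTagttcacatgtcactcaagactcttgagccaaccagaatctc

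The same stretch on chromosome 4 carries the other run, and no CCAAT followed within it.
Gm13212 (chr4:145585040-145585116, plus strand): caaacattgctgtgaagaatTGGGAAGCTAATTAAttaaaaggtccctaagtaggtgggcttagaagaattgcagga
Zfp980 (chr4:145670536-145670612, plus strand): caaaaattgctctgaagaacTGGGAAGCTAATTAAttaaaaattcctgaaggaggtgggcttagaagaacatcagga
Zfp987 (chr4:146097141-146097217, plus strand): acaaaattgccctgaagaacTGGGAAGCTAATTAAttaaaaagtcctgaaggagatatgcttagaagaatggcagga
Zfp600 (chr4:146156672-146156748, plus strand): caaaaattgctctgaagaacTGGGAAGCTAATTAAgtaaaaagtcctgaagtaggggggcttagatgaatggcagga
Zfp981 (chr4:146514736-146514812, plus strand): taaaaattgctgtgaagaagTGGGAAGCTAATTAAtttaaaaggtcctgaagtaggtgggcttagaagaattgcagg

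For context, the 250 bases before the start are given for the member of each cluster with the highest level per kilobase of exon among those in the table, with the shared run in capitals.
Zfp970 (chr2:177464492-177464741, plus strand): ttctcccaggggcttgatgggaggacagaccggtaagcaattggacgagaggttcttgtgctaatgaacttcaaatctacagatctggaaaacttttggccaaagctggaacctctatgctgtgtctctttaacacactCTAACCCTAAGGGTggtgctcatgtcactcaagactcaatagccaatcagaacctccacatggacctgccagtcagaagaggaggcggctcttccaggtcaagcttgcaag
Zfp980 (chr4:145670447-145670696, plus strand): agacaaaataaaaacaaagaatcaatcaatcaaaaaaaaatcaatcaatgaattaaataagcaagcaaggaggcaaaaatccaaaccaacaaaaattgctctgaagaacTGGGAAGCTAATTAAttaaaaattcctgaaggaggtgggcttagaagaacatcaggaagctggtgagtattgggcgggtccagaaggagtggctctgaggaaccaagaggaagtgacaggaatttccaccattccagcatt

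Other motifs were searched on both strands of the 300-base promoters. CCAAT was found in 12 of 13 chromosome 2 and 5 of 6 chromosome 4 promoters, against 37.4% of all promoters. GGGCGG, the core of the GC box bound by Sp factors, was in 0 of 13 and 4 of 6, against 35.7%. TATAAA was in 0 of 13 and 1 of 6, against 13.6%. CACGTG, TGACGTCA, AAGATGGC and ATTTGCAT were found in none of the 19 member promoters. The median number of CpG dinucleotides was 3.0 on chromosome 2 and 3.5 on chromosome 4, and 7.0 over all promoters.

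Members resemble each other closely enough to share reads. Of all 100-base words in a member's exons, a median of 47.6% on chromosome 2 (from 0.8% to 87.9%) and 42.0% on chromosome 4 (from 3.6% to 93.1%) occurred also in the transcripts of another gene. Over 50% of the words were shared for 12 members on chromosome 2 and 7 on chromosome 4. The sources used here do not give how read pairs that aligned to several places were counted, and the levels of such members are uncertain for that reason. Gm14443 (0.8%), Gm14412 (2.8%), Zfp990 (3.6%) and Gm14403 (4.9%) have sequence that is nearly their own. At the other end, Gm14406 shared 87.9% with Gm14444 and the processed pseudogene Gm13237 shared 83.0% with Gm13232 alone. Gm13239 lies within the span of Zfp980 on the same strand. Of its words 24.3% occurred in transcripts of other genes, the most in Gm8178 (15.1%). Most of its sequence therefore lies outside the annotated exons of Zfp980. Whether reads of Zfp980 were counted there was not tested.

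Levels per kilobase of exon, which allow genes to be compared, spanned a wide range. Zfp990 stood highest of all members with a mean of 88.8 CPM per kilobase over the 42 libraries, followed on chromosome 4 by Zfp980 at 12.9, Zfp987 at 9.17, Zfp981 at 8.8, Gm13237 at 6.69 and Gm13245 at 4.79. Zfp990 alone took between 57.4% and 71.3% of the summed CPM of the 16 members. On chromosome 2 Gm14401 was highest at 14.2 CPM per kilobase, then Gm14412 at 6.41, Gm14409 at 6.05, Zfp970 at 5.57, Gm14325 at 5.45 and Gm14443 at 4.96. The medians of the clusters were close, 3.5 CPM per kilobase on chromosome 2 and 3.3 on chromosome 4. Of the 40 members, 35 had more than 3 reads in each library and 31 had a mean level of at least 0 log2 CPM. The lowest mean was that of Gm13239, at -0.91 log2 CPM.

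Both clusters stood higher within a day of LIF withdrawal and were near their starting level again at 120 h. Their duplicate means stayed above those at 0 h to 84 h, when they were 1.94 log2 CPM on chromosome 2 and 2.25 on chromosome 4. The mean over the 24 chromosome 2 members was 1.51 log2 CPM at 0 h (1.57 in A, 1.44 in B) and reached 2.81 at 24 h (2.89 in A, 2.72 in B). It was 2.32 at 48 h, fell to 1.01 at 108 h (1.16 in A, 0.86 in B) and was 1.62 at 120 h (1.70 in A, 1.55 in B). Both replicates at 24 h lay above both at 0 h, and both at 108 h lay below them. The mean was higher in A than in B at 19 of the 21 time points on chromosome 2 and at 13 of 21 on chromosome 4. The mean over the 16 chromosome 4 members rose from 1.73 log2 CPM at 0 h (1.67 in A, 1.79 in B) to 3.33 at 30 h (3.59 in A, 3.08 in B) and 3.58 at 42 h (3.82 in A, 3.35 in B). It was 3.14 at 48 h, 1.81 at 108 h and 1.8 at 120 h (1.84 in A, 1.76 in B). The point at 42 h rested on Gm13237, and without it the highest mean was 3.54 at 30 h, with 3.48 at 42 h. Over the same hours the median of all 14296 genes stayed near one level, with 4.44 log2 CPM at 0 h, 4.27 by 30 h and 4.45 by 120 h.

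**Figure D1:**
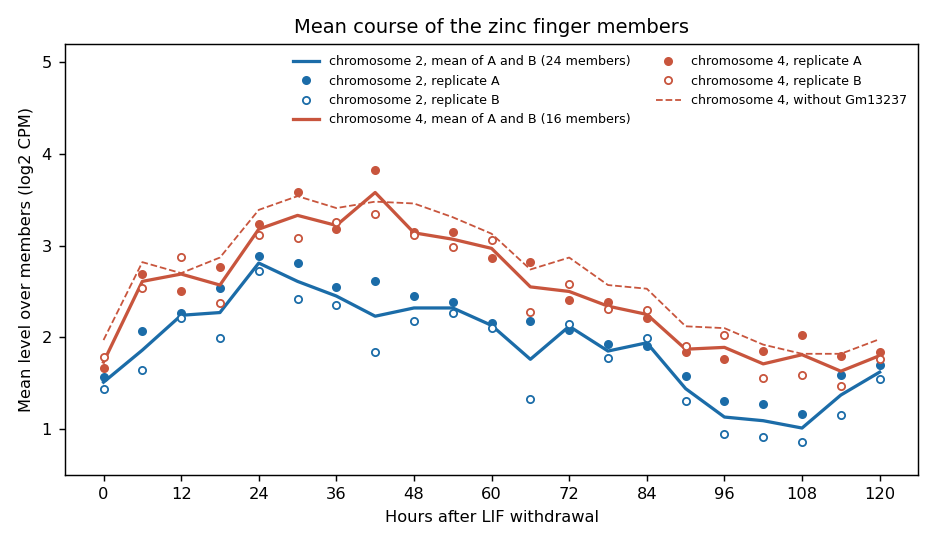
Mean level of the members of each window (log2 CPM, vertical axis) against hours after LIF withdrawal, with filled points for replicate A, open points for replicate B and a line through the mean of both; the dashed line leaves out Gm13237. The chromosome 2 mean was highest at 24 h (2.81) and lowest at 108 h (1.01), and the chromosome 4 mean without Gm13237 was highest at 30 h (3.54).

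Peaks of the single members fell close together. Of the 24 chromosome 2 members, 21 had their highest duplicate mean between 24 h and 54 h, 15 of them at 24 h itself, and 18 had their lowest between 90 h and 120 h. On chromosome 4, 15 of 16 peaked between 24 h and 54 h, with 7 at 30 h, and 13 were lowest between 90 h and 120 h. The distance between a member's highest and lowest mean was 2.16 in the median on the log2 scale on chromosome 2 (from 1.27 to 4.0) and 2.12 on chromosome 4 (from 1.12 to 8.24).

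**Figure D2:**
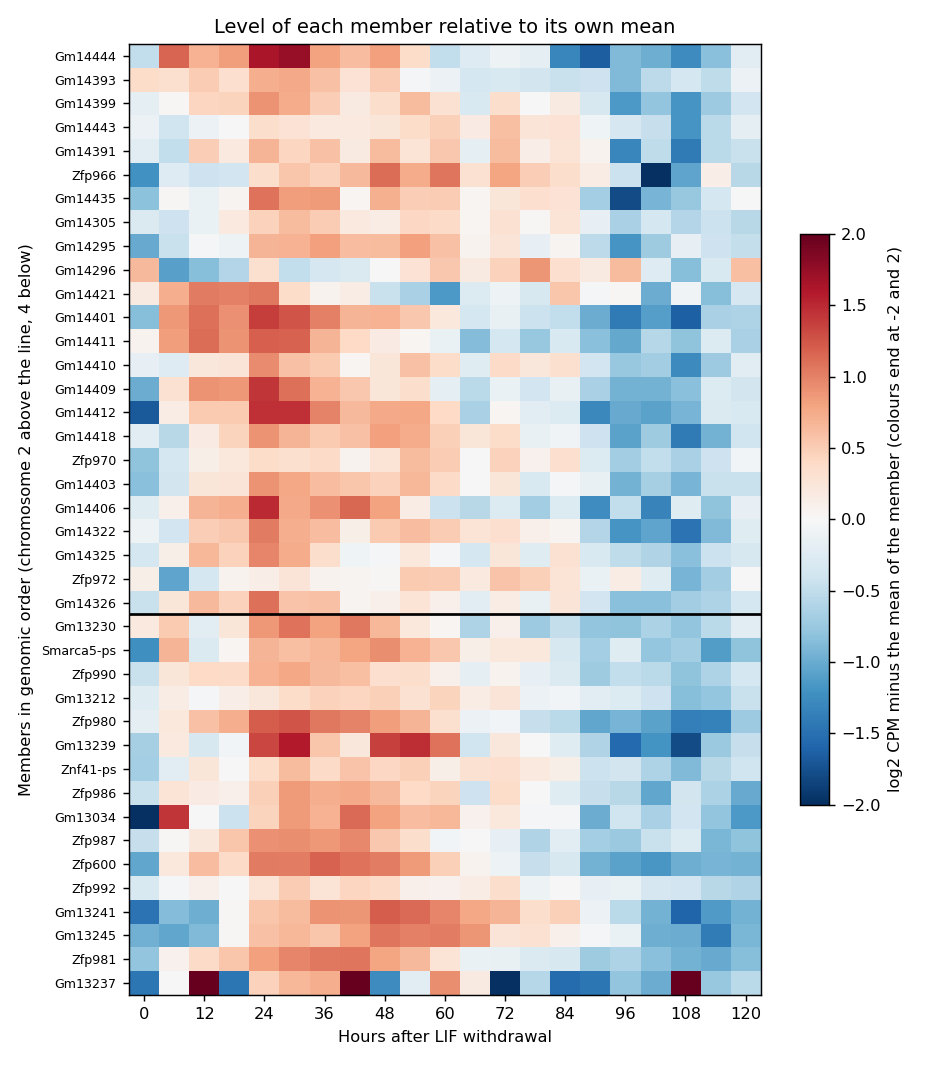
Level of each of the 40 members at the 21 time points (mean of A and B, log2 CPM minus the member's own mean over time), in genomic order with chromosome 2 above the line and chromosome 4 below. Most rows are red from 24 h to 54 h and blue from 90 h on. Gm14296, Zfp972, Gm14421 and Gm13237 follow courses of their own.

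Among the chromosome 2 members with the highest levels, Gm14401, a KRAB protein with 5 fingers, stood at 3.23 (A) and 2.97 (B) log2 CPM at 0 h and at 5.42 and 5.26 at 24 h, and was back at 3.33 and 3.35 at 120 h. The replicates at 24 h were clear of those at 0 h, with a log2 change of 2.24 (SE 0.25). Gm14412, with 15 fingers and little shared sequence, had the largest change of the cluster, from 1.49 and 1.28 log2 CPM at 0 h to 4.54 and 4.52 at 24 h, a log2 change of 3.14 (SE 0.40). It ended above its start, at 2.77 and 2.76 log2 CPM. Gm14409, which encodes 8 fingers and no recognised KRAB core, moved from 1.58 and 1.40 to 3.95 and 3.87 log2 CPM at 24 h and to 2.18 and 2.04 at 120 h. Its log2 change at 24 h was 2.42 (SE 0.26).

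Other members moved less. Zfp970 (14 fingers) had 2.94 and 2.49 log2 CPM at 0 h, 3.95 and 3.85 at 24 h and 3.34 and 3.61 at 120 h. Gm14325, also with 14 fingers, was at 2.99 and 2.40 log2 CPM at 0 h, 4.07 and 3.97 at 24 h and 2.82 and 2.65 at 120 h. Gm14443, whose sequence is nearly unique, had a flat start, with 4.57 and 4.25 log2 CPM at 0 h and 4.92 and 4.83 at 24 h, and its clearest feature was the low at 108 h, with 3.37 and 3.34. Gm14305 had the smallest range of the cluster (1.27), with 2.62 and 1.74 log2 CPM at 0 h, 3.23 and 2.95 at 30 h and 1.81 and 1.94 at 108 h. Its replicates at 0 h stood well apart from each other.

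The largest ranges on chromosome 2, those of Zfp966 and Gm14444, belonged to weakly expressed genes. The next largest was that of Gm14412 (3.14), which is among the members with the highest levels. Zfp966 (11 fingers) spanned 4.0 on the log2 scale, between duplicate means of 0.81 log2 CPM at 48 h and -3.2 at 102 h. It had -1.17 and -1.89 log2 CPM at 0 h and 0.95 and 0.66 at 48 h, and in 1 library it had no more than 3 reads. Gm14444 (10 fingers, no recognised KRAB core) spanned 3.39, between duplicate means of 1.7 at 30 h and -1.69 at 90 h. It had -0.92 and -0.16 at 0 h and 1.8 and 1.39 at 24 h. Both share over 70% of their words with other genes, 79.9% and 73.3%.

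The chromosome 2 members that are not coding zinc finger genes divided. Gm14435, a KRAB box gene without fingers, followed the cluster (r with the mean of the other members 0.87), with -1.04 and -0.23 log2 CPM at 0 h and 1.54 and 0.99 at 24 h. The pseudogene Gm14411 had -0.28 and 0.02 log2 CPM at the start and 0.8 and 1.2 at 24 h (r 0.75), and its replicates did not overlap. The pseudogene Gm14421 (r 0.36) went from -1.04 and 0.08 at 0 h to 0.60 and 0.19 at 24 h, with its replicates at 0 h far apart. Zfp972, which has no finger array in the annotation, stood at like levels at 0 h (1.8 and 1.59 log2 CPM) and 24 h (1.83 and 1.62). Between these times it fell to its lowest mean, 0.53 log2 CPM at 6 h. That log2 change of -1.17 (SE 0.35, limma adjusted p = 0.0055) did not pass the threshold. Its r with the others was 0.42, although its promoter, printed above, holds the shared run and the CCAAT sequence. Gm14296, with a KRAB core and 1 finger, was the member least like the rest (r -0.11). It fell from 2.35 and 2.41 log2 CPM at 0 h to its lowest level at 6 h (0.96 and 0.33), a log2 change of -1.74 (SE 0.23), and was the member called lower at that time. It was at 1.44 and 1.04 log2 CPM at 30 h, highest at 78 h (2.79 and 2.42) and at 2.28 and 2.39 at 120 h.

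On chromosome 4, Zfp990, a protein with 13 fingers, stood at 7.79 and 7.71 log2 CPM at 0 h, 9.09 and 8.84 at 30 h, 7.49 and 7.27 at 108 h and 7.83 and 7.84 at 120 h. The pairs of replicates at 0 h and 30 h did not overlap. Its log2 change at 120 h against 0 h was 0.09 (SE 0.17). Zfp980 (13 fingers) was at 5.32 and 5.19 log2 CPM at 0 h, at 6.87 and 6.56 at 30 h and at 4.60 and 4.84 at 120 h. Zfp987 (14 fingers) went from 4.30 and 4.10 log2 CPM at 0 h to 5.76 and 5.42 at 30 h and 3.94 and 3.81 at 120 h. Both were lower at the end than at the start in each replicate. Zfp981 (7 fingers) had closely matched replicates, at 3.83 and 3.85 log2 CPM at 0 h, 5.46 and 5.44 at 24 h, 5.43 and 5.41 at 48 h and 3.76 and 3.78 at 120 h. Its log2 change was 1.61 at 24 h and 1.58 at 48 h, each with an SE of 0.19. The smallest ranges on chromosome 4 were those of Zfp992 (1.12), Gm13212 (1.33) and the pseudogene Znf41-ps (1.52), and even so the duplicate means of Zfp992 ran between 4.89 log2 CPM at 30 h and a low of 3.78 at 120 h.

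The pseudogenes of chromosome 4 mostly moved with the coding genes of the window. Several share many words with other genes: Znf41-ps 77.3% (70.0% with Zfp991), Gm13241 59.6% and Gm13034 50.2%. Smarca5-ps shares 38.4%, Gm13239 24.3%, Gm13245 16.8% and Gm13230 12.9%. The part of shared reads in their courses was not tested. Znf41-ps had 1.54 and 1.28 log2 CPM at 0 h and 2.61 and 2.31 at 24 h (r 0.89), and Gm13230 had 2.74 and 2.54, then 3.33 and 3.28 (r 0.79). In both the replicates of these times stood apart. Gm13239, which lies within the span of Zfp980, went from -2.10 and -1.07 to 0.21 and 0.65 log2 CPM (r 0.81). Gm13034 (r 0.81) was the chromosome 4 member that peaked outside the hours from 24 h to 54 h. It rose from -2.10 and -2.13 log2 CPM at 0 h to its highest level at 6 h (1.62 and 1.17), a log2 change of 3.51 (SE 0.40), was lower at 18 h (-0.42 and -0.51) and stood at 0.93 and 0.59 at 48 h. Gm13241 (r 0.74) and Gm13245 (r 0.73), which lie near each other, both had their highest means at 48 h, with 1.22 and 1.5 log2 CPM for Gm13241 at 24 h and 2.08 and 1.96 at 48 h. Smarca5-ps, a processed copy of the chromatin remodeller gene Smarca5, rose from -0.61 and -0.64 log2 CPM at 0 h to 1.58 and 1.48 at 48 h. Smarca5 itself had a like course, with means of 8.54, 9.16 and 8.52 log2 CPM at 0, 48 and 120 h. Reads of the parent that were placed on the copy were not separated here, and their part in its level was not tested.

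Gm13237 did not behave as a gene with a course. It had between 2 and 2173 reads in a library, with 2173 in B but 21 in A at 12 h, 1548 in A and 797 in B at 42 h, 475 in B but 8 in A at 60 h, and 565 in A but 15 in B at 108 h. Its SD between duplicates was 1.85 on the log2 scale, against a median of 0.265 for the 16 members.

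Pairs of members were alike in course within and between the chromosomes. Pearson's r over the 21 duplicate means had a median of 0.71 over the 276 pairs within chromosome 2, 0.81 over the 120 pairs within chromosome 4 and 0.72 over the 384 pairs that join the chromosomes. Within replicate A the medians were 0.68, 0.77 and 0.70, and within replicate B 0.66, 0.74 and 0.63. Members of a pair share the libraries, the time points and in part their reads, so these values carry no test. Neighbouring members had a median r of 0.76 (23 pairs) on chromosome 2 and 0.81 (15 pairs) on chromosome 4, and over all 14139 neighbouring pairs of measured genes the median was 0.17. The mean courses of the chromosomes followed each other with r 0.89 over the 21 time points, 0.91 in A alone and 0.86 in B alone. The library means went with log2 counted reads at r 0.23 on chromosome 2 and 0.31 on chromosome 4 over the 42 libraries.

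**Figure D3:**
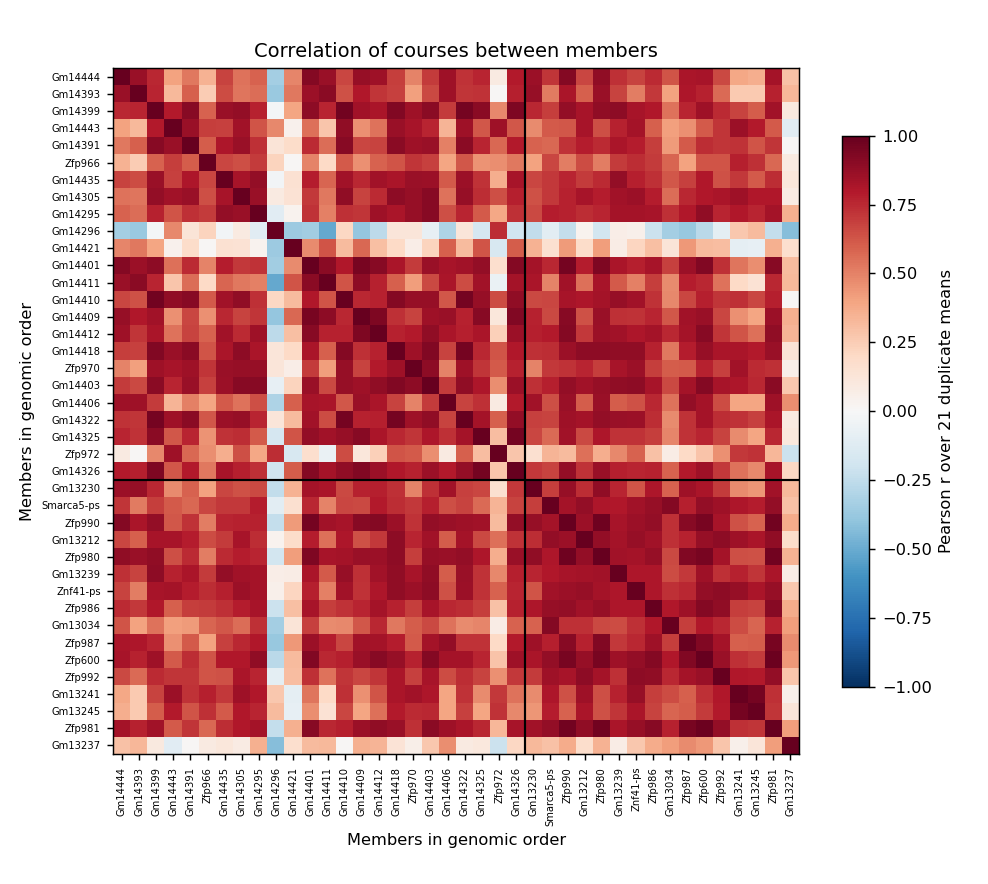
Pearson's r between the courses of all pairs of the 40 members over 21 duplicate means, in genomic order on both axes, with lines between chromosomes 2 and 4. The pairs across the chromosomes (median 0.72) are about as red as those within chromosome 2 (median 0.71). The rows of Gm14296, Zfp972, Gm13237 and Gm14421 (r 0.36 with the mean of the other members) are paler or bluer than most.

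Likeness of course was similar among members with at most 50% shared words and among those above it. The mean used for r holds members of both groups, and the part of shared reads in these values was not tested. Among the members with at most 50% shared words, the median r with the mean of the other members was 0.87 on chromosome 2 (12 members) and 0.89 on chromosome 4 (9 members). Among the members above 50% it was 0.84 (12 members) and 0.89 (7 members). The 4 members with nearly unique sequence had r values of 0.94 (Gm14403), 0.93 (Zfp990), 0.90 (Gm14412) and 0.75 (Gm14443).

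**Figure D4:**
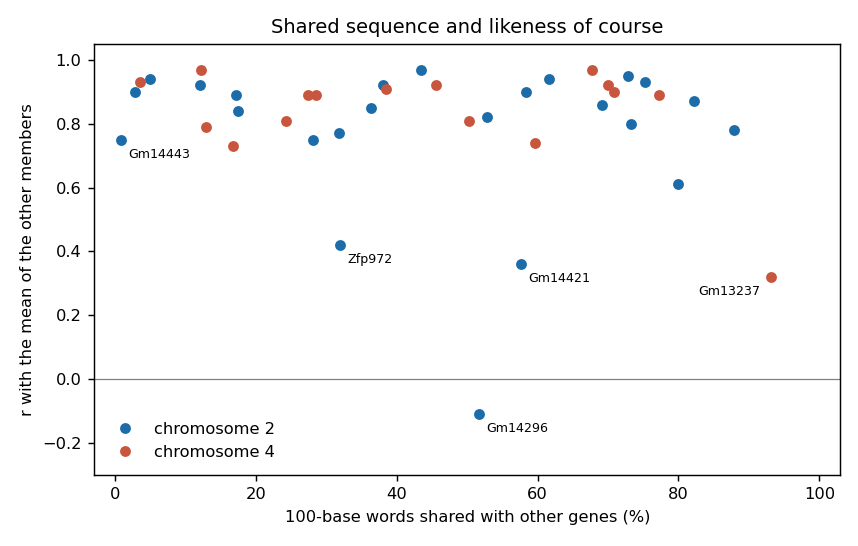
Each point is a member, with the percentage of its 100-base words that occur in transcripts of other genes on the horizontal axis and r with the mean of the other members of its window on the vertical axis. Members with r above 0.7 are found from 0.8% to 87.9% shared words, and the 4 low points from Gm14296 to Zfp972 lie between 32.0% and 93.1%.

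Genes of like course continue beyond the end of both windows. Just inside its start lies Gm14444 (r 0.80) and just outside it Edn3, the gene of the peptide endothelin 3 (r -0.66 with the members). Just inside its end lies Gm14326 (r 0.94) and just outside it Zfp971, whose r of 0.92 was as high as that of the members. On chromosome 4 the first member Gm13230 (r 0.79) follows Tnfrsf8 (r 0.21), the gene of the receptor CD30, and the last member Gm13237 (r 0.32) precedes Zfp993 (r 0.08). Further along chromosome 4 lie Gm21411 (r 0.96) and 7 genes whose promoters hold the chromosome 4 run, with r from 0.85 to 0.95.

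Calls by limma on the deposited log2 values, at an adjusted p under 0.0001, are given here as a description, because these contrasts use the libraries on which the windows were chosen. Over the 21 time points 30 of the 40 members passed the F test, 15 on each chromosome, where 74.6% of all 14296 genes did. At 6 h against 0 h 3 members passed, 2 higher and 1 lower, where 26.3% of genes changed. At 24 h 12 members were higher (5 on chromosome 2 and 7 on chromosome 4) and 0 lower, where 9.9% of genes were higher. The median log2 change was 1.16 on chromosome 2 and 1.48 on chromosome 4, and -0.04 over all genes, with 39 of the 40 members above 0.

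At 48 h against 0 h 10 members were higher and 0 lower, where 14.8% of genes were higher, and 8 of the 10 lay on chromosome 4. The median log2 changes were 0.74 and 1.09. At 72 h 3 members were higher, where 13% of genes were. At 96 h 0 of 40 members passed in limma, where 23.5% of genes did, with 13 members at an unadjusted p under 0.05 and 0 past the threshold with voom weights. At 120 h 0 of 40 passed in limma, where 23.0% of genes did, with 5 members at an unadjusted p under 0.05 and 0 past the threshold with voom weights. The median log2 changes at 120 h were 0.0 and 0.07. From 48 h to 120 h 10 members fell, 9 of them on chromosome 4, where 11% of genes fell.

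Leaving out 1 library moved the counts by over 1.5 times at 24 h, to 7 without A at 0 h, 5 without B at 0 h and 4 without A at 24 h. At 48 h each of the 4 libraries did so, with counts of 5 and 4 without A or B at 0 h and of 3 and 4 without A or B at 48 h. At 72 h the count was 1 without A at 72 h and 0 without any other of the 4 libraries. From 48 h to 120 h it was 3 and 5 without A or B at 48 h and 4 and 3 without A or B at 120 h.

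**Figure D5:**
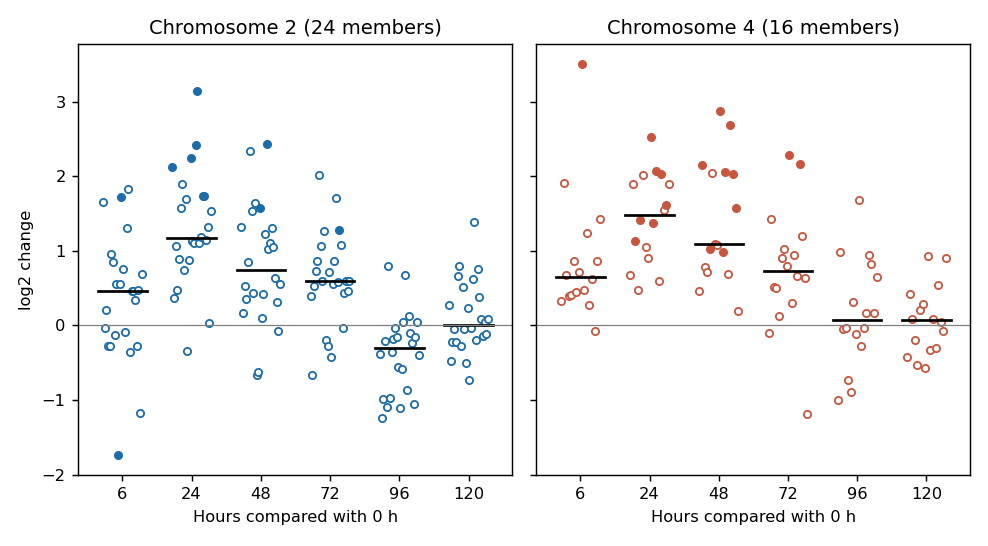
log2 change of each member (points) at 6, 24, 48, 72, 96 and 120 h against 0 h, for chromosome 2 on the left and chromosome 4 on the right; filled points passed adjusted p under 0.0001 in limma and the bar is the median over members. The medians stand at 1.16 and 1.48 at 24 h and at 0.0 and 0.07 at 120 h.

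Genes outside the windows whose promoters carry the shared runs, where measured, were also high at 24 h. The chromosome 2 run was found in 30 genes, 27 of them inside the window, and 2 of the 3 outside were measured. Zfp971 had means of 1.78, 3.75 and 1.51 log2 CPM at 0, 24 and 96 h (r 0.92 with the mean of the members). Zfp931 had 3.58, 4.02 and 2.61 log2 CPM at these times (r 0.83). The chromosome 4 run was found in 12 genes, 5 inside the window and 7 outside on the same chromosome, and all 7 were measured. Their r with the mean of the chromosome 4 members ran from 0.85 for Zfp984 to 0.95 for Zfp985 and Zfp534. Rex2, a zinc finger gene, had means of 3.48, 5.21 and 2.92 log2 CPM at 0, 24 and 120 h (r 0.89). Of the 100-base words of Zfp980, 39.2% occur in Rex2, as do 58.7% of those of Zfp600, and the part of shared reads in the likeness of these courses was not tested. Within the chromosome 2 window, Zfp972 holds the run and had the r of 0.42 given above. Like courses were not confined to genes found with a run. Gm14444, whose RefSeq promoter lacks the chromosome 2 run, had r 0.80. That promoter (chr2:175016479-175016778) lies inside the GENCODE gene, which starts at 175010241, so the run was not sought at the GENCODE start. In the same stretch of chromosome 4, Zfp978, Zfp989, Zfp991 and Zfp933 were not among the genes found with the run. Their r with the chromosome 4 mean was 0.96, 0.87, 0.86 and 0.61. The part of the runs in these courses was not tested.

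Of the genes outside both windows with a mean level of at least 0 log2 CPM, 12880 were ranked by likeness to each mean course. The 5 most like chromosome 2 were Nup155, a nuclear pore component (r 0.95), Zfp978, a KRAB zinc finger gene on chromosome 4 (0.95), Ipo9, a nuclear import receptor (0.94), Mns1, a structural gene of meiosis and cilia (0.94), and Ptcd3, a mitochondrial ribosome protein (0.94). Among the 5 most like chromosome 4 were Zfp978 (0.96), Tnfsf11, which encodes RANKL (0.96), Set, a histone chaperone (0.96), and Gm21411 (0.96). Set had means of 10.05, 11 and 9.94 log2 CPM at 0, 24 and 120 h.

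Genes of the corepressor machinery on which KRAB proteins rely were tested over the same hours. Of a list of 27 genes of the TRIM28 pathway and its partners, 14 passed at 48 h against 0 h in limma (adjusted p under 0.0001), 13 higher and 1 lower, where 30.4% of all genes passed. The list also holds zinc finger genes: Zfp57, which was the 1 lower, Zfp809, which was among the 13 higher, and Zfp445. Zfp57 and Zfp809 are counted again among the 189 KRAB zinc finger genes elsewhere that are described below. Trim28 had a mean of 9.84 log2 CPM in the 0 h libraries and rose to 10.71 by 24 h and 10.72 by 48 h, a log2 change of 0.88 at 48 h (SE 0.12, limma adjusted p = 6.2e-07), and was at 9.69 at 120 h. Cbx3, Cbx1 and Cbx5, which encode HP1 proteins, rose by log2 changes of 1.09 (SE 0.14), 0.86 (SE 0.10) and 1.12 (SE 0.19) at 48 h. Setdb1 had a smaller change of 0.34 (SE 0.09, limma adjusted p = 0.0013), which did not pass the threshold.

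The de novo DNA methyltransferase genes Dnmt3a and Dnmt3b had the largest changes of the list at 48 h. Dnmt3b rose to 10.56 log2 CPM at 48 h from 6.44 at the start and Dnmt3a to 9.41 from 6.49, with log2 changes of 4.11 (SE 0.11) and 2.92 (SE 0.09). The maintenance methyltransferase gene Dnmt1 had a log2 change of 0.06 (SE 0.14, limma adjusted p = 0.72). At 120 h against 0 h 4 of the 27 passed, where 23.0% of all genes did. Pphln1, a component of the HUSH silencing complex, was higher by 1.35 (SE 0.14, limma adjusted p = 3.9e-09) and Dnmt3b by 1.02 (SE 0.11, limma adjusted p = 1.3e-08). Zfp57, a KRAB zinc finger gene that protects imprinted methylation, fell by 1.71 (SE 0.15, limma adjusted p = 3.5e-10) and Dnmt3l, a cofactor of the methyltransferases, fell by 1.38 (SE 0.15, limma adjusted p = 1.4e-08). Zfp57 had already fallen at 48 h, from 9.53 to 7.45 log2 CPM, when the mean of each window was above its 0 h level.

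KRAB zinc finger genes elsewhere in the genome were also compared with 0 h. Of 189 measured outside the windows, 37 were higher and 2 lower at 48 h against 0 h, where 14.8% of all genes were higher and 30.4% changed in either direction. At 120 h 15 were higher and 3 lower, where 23.0% of all genes changed. The 39 calls at 48 h became 22 without A at 0 h, 18 without A at 48 h and 23 without B at 48 h, and the 18 at 120 h became 11 without A at 120 h. Their median log2 change at 24 h was 0.44, against 1.16 and 1.48 for the members. Their r with the mean course of the chromosome 2 members had a median of 0.30, and 40.7% of them were above 0.5, where 25.3% of all 14256 genes outside the windows were.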

How the data were processed

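Members and gene lists were chosen with earlier results of these data known. Per the labels, the authors worked with Trim Galore, TopHat2, HTSeq, edgeR and limma on build mm10, with versions not given in the sources used here. The authors trimmed paired reads of 100 bases, counted them per GENCODE vM2 gene, normalized for library size and transformed them with voom. The deposited values are log2 CPM, 1 file per library. Whole reads were recovered from them to within 2.91e-08 of a read; the effective library sizes followed, and a level of 3 reads was 0.057 to 0.316 CPM. Per-kilobase levels divide CPM by exon length in GENCODE vM21, to which 14177 of the 14296 genes were matched by identifier.

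limma 3.58.1 (R 4.3.3; lmFit, eBayes with a trend) was fitted to the deposited log2 values with a factor of 21 time points over 42 libraries (21 residual degrees of freedom), with Benjamini-Hochberg adjustment over all genes within a contrast and adjusted p under 0.0001, the study's threshold. The 2 libraries per time point are biological duplicates of a single line. Python 3.11.15, numpy 2.4.6 and pandas 2.3.3 gave Pearson's r over duplicate means. The fit and the ranking were tested on simulated data.

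Named members are, per window, the 6 highest per kilobase, the 3 with the largest and the 3 with the smallest range, the 3 least like the others and each that is no coding zinc finger gene, with the 5 most alike genes outside and up to 3 of the largest changes in each direction among cofactor genes past the threshold at 120 h (2 in each direction passed). Gm14403, Gm14406, Smarca5, Zfp600 and the further printed promoters and genes with the shared runs were chosen after their values were seen. The cofactor genes Trim28, Setdb1, Cbx1, Cbx3, Cbx5, Dnmt1 and Dnmt3a were named outside the 120 h rule, with their values known. Proteins were not printed; fingers and KRAB cores were counted in translated GENCODE coding sequences in place of RefSeq proteins. Shared runs were extended from the 12-base words held by most promoters of a window. One gene that the likeness rule selects is not reported here.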

Additional observations from a re-analysis of the deposited data

How the results depend on the processing

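The study describes duplicate time courses, and the labels do not say what a replicate letter shares. Over all genes, deviations from the time point means correlated by 0.08 on average over 210 pairs of libraries with the same letter. The range was -0.474 to 0.598, with 99 pairs over 0.1, and the main fit did not use the letters to pair the libraries. The chromosome 2 mean was higher in A at 19 of 21 time points, and that difference stays in the residual spread of the main fit. With the replicate block, members past the threshold numbered 7 in place of 3 at 6 h, 18 in place of 12 at 24 h, 15 in place of 10 at 48 h, 5 in place of 3 at 72 h and 1 in place of 0 at 96 h. Voom weights gave 0 at 72 h. At an adjusted p under 0.05 13 members passed for 6 h, 33 for 24 h, 24 for 48 h, 20 for 72 h, 11 for 96 h and 4 for 120 h, and 27 between 48 h and 120 h. For KRAB zinc finger genes elsewhere they were 117 at 48 h and 67 at 120 h, and for the cofactor list 13 at 120 h.

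Leaving out single libraries gave ranges of 4 to 9 members at 24 h, 3 to 5 at 48 h, 0 to 1 at 72 h, 3 to 5 from 48 h to 120 h, 18 to 27 KRAB zinc finger genes elsewhere at 48 h and 11 to 14 at 120 h. The median r with the other members was 0.83 in A and 0.81 in B on chromosome 2 and 0.86 and 0.84 on chromosome 4. It was 0.88 without 0 h and 6 h, 0.87 over members with at most 50% shared words (an alternative chosen after seeing the data) and 0.84 with totals of counted reads as library sizes on chromosome 2, and 0.85 with such totals on chromosome 4.

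With totals the median of all genes moved by between -0.16 and 0.13, and by -0.2 between 0 h and 48 h. The median log2 change at 48 h was then 0.54 on chromosome 2 and 0.89 on chromosome 4, and with log2(CPM + 1) 0.49 and 0.91. In A and in B alone it was 0.67 and 0.73 on chromosome 2 and 1.31 and 1.17 on chromosome 4, and at 120 h on chromosome 4 it was -0.09 in B alone. Of 146 alternatives 98 kept their value within the limits set for it, Spearman's rho and leaving out Gm13237 (also chosen after seeing the data) among them. The cause of these differences was not tested. With 2 libraries per time point, 6-hourly steps of single members are within the spread of the duplicates in many cases, and levels of members with shared words are uncertain at any depth.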

Other observations

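KRAB zinc finger genes outside the windows differed by chromosome in how closely they followed the mean course of the chromosome 2 members over the 21 duplicate means. On chromosome 4 12 of 13 had r above 0.5 (median 0.87). Of these 13, 11 lie beyond the end of the window, in chr4:146971976-147848366, with r from 0.59 to 0.95, and the distant Zkscan16 and Zfp46 had r of 0.53 and 0.0. On chromosome 13 11 of 19 did (median 0.56) and on chromosome 7 19 of 43 (median 0.47). On chromosome 17, which holds the second largest number, 9 of 39 did (median 0.01). These counts describe genes that share libraries and in part sequence, and the differences between chromosomes were not tested.

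The reads of the processed pseudogene Gm13237 were followed over the 42 libraries. The measured gene most like it was Aar2, with r 0.53 over these libraries. Aar2, like Gm13237, had its most reads in B at 12 h (1911). The r between pairs of members was taken over 21 duplicate means and is not comparable with this value.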
